A study of Mus musculus with 6 samples.

Results

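The levels of 10 genes commonly used to recognise tissue macrophages were followed in c-Kit+ bone marrow cells of the mouse: Adgre1, Cd68, Hmox1, Spic, C1qa, C1qb, C1qc, Cd163, Mrc1 and Vcam1. They were chosen by name as marrow macrophage genes, with earlier results of these data known. All 10 were among the 20097 genes with a value in every library, and all 10 passed the filter on low values that left 15410 genes for testing. The study measured poly-A RNA in 3 libraries of WT cells and 3 libraries labelled Runx1 KO, a knockout of the gene for the transcription factor RUNX1. Both groups were c-Kit+ bone marrow cells, a fraction selected for the receptor encoded by Kit and rich in stem and progenitor cells, so macrophages are not the cells the fraction was selected for. How Runx1 was disrupted, and the age and strain of the mice, are not given in the sources used here.

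The values are normalised read counts, in which each library's reads per gene are scaled by 1 factor, and the libraries held between 23297526 and 26793380 reads. Runx1 RNA was more abundant under the Runx1 KO label than in WT. It stood at 3031, 2799 and 3497 normalised reads in WT and at 6648, 6720.3 and 5829.9 in the libraries labelled Runx1 KO, a log2 change of 1.04 ± 0.10 (SE, n = 3 and 3; limma, adjusted p = 0.00163). A gene total does not show whether part of a gene is deleted, and the groups below are therefore named by their labels. Kit was abundant in every library but higher under the Runx1 KO label. Its level was 7979, 8455 and 8471 normalised reads in WT and 11507, 13684 and 12756 under that label. Its log2 change was 0.60 ± 0.07 (SE, n = 3 and 3; limma, adjusted p = 0.0035). Of the WT libraries WT 1 was lowest for 9 of the 10 macrophage genes, and of the libraries labelled Runx1 KO the second was lowest for 9 of 10.

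Tissue macrophages clear dying cells and worn-out red cells, and in marrow they also sit at the centre of the islands in which red cell precursors mature. ADGRE1 (F4/80), VCAM1, the mannose receptor MRC1 and the haemoglobin scavenger receptor CD163 are on their surface, and CD68 lies in their lysosomes. HMOX1 breaks down haem, SPIC is a transcription factor needed by macrophages that recycle iron, and the C1QA, C1QB and C1QC chains together form C1q, the recognition part of the classical complement pathway.

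Of the 10 genes, 9 had a lower fitted level in the libraries labelled Runx1 KO at any p, as did 50.6% of all tested genes. Past the threshold, 3 of 10 were called by limma (adjusted p under 0.05), all lower: Adgre1, Cd68 and Hmox1. Among all tested genes 21.9% were called, 11.3% lower and 10.6% higher, and 3 calls among 10 genes are too few to set apart from that share. At an unadjusted p under 0.05 the count was 5 of 10 against 37.7% of all genes. The median log2 change of the 10 genes was -0.49, and that of all tested genes was -0.0042. In 2 of the 10, Adgre1 and Cd68, no library labelled Runx1 KO reached the lowest WT library, and groups were apart in this way, in either direction, for 43.3% of all tested genes, 21.9% with WT higher. Vcam1 alone among the 10 had a higher mean in the libraries labelled Runx1 KO. In these bulk samples, fewer macrophages, less RNA of a gene per macrophage and changes in other cells that express it cannot be told apart.

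**Figure D1:**
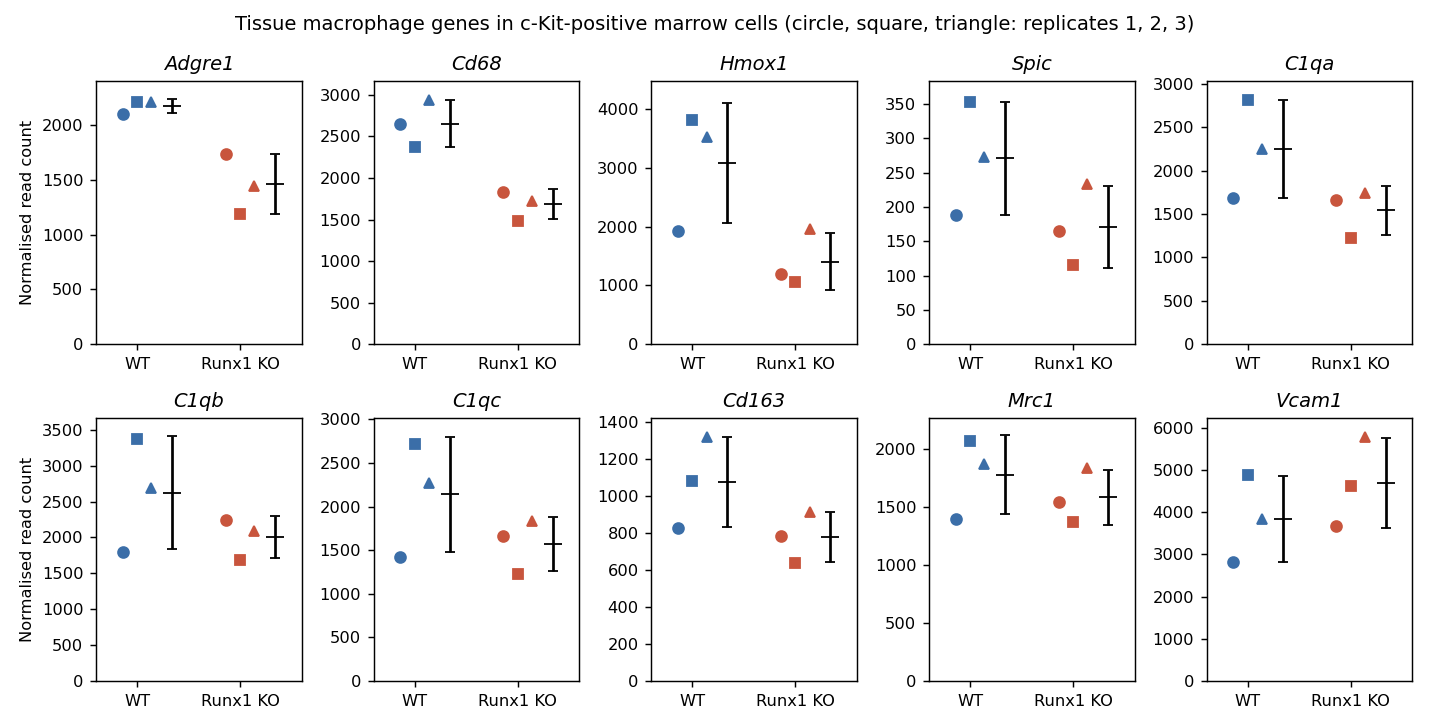
Normalised read count (vertical axes, each from 0) of each gene in the 3 WT libraries (blue) and the 3 libraries labelled Runx1 KO (red), with the mean and SD of each group in black beside the points. The groups are apart only for Adgre1 and Cd68, and WT 1 (blue circle) is the lowest WT library in 9 of the 10 panels.

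**Figure D2:**
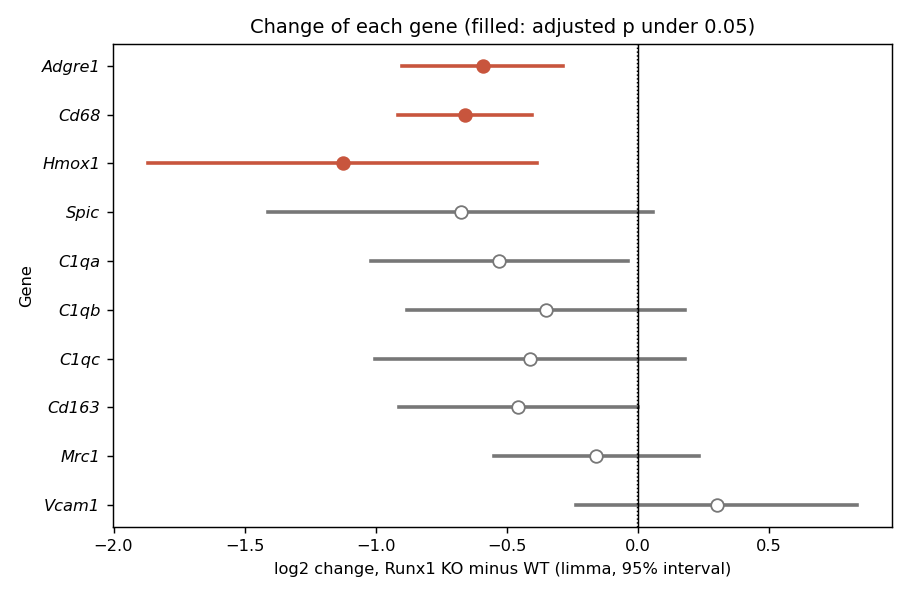
Log2 change from WT to Runx1 KO (horizontal axis) of each gene with its 95% interval from limma, filled where the adjusted p was under 0.05. Hmox1 has the lowest change, -1.12, and Vcam1, at 0.30, is the only gene above 0.

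Cd68, which encodes a heavily glycosylated protein of the lysosome and endosome membrane in macrophages and monocytes, gave the call that depended least on the processing. Its level was 2646, 2374 and 2942 normalised reads in WT and 1837, 1483 and 1727 in the libraries labelled Runx1 KO. All 3 of the latter were below every WT library, at 69.2%, 55.9% and 65.1% of the WT mean. The log2 change was -0.66 ± 0.11 (SE, n = 3 and 3), with a 95% interval from -0.91 to -0.40 (limma, adjusted p = 0.0083). Cd68 lies on chromosome 11 at 69664213 to 69666153, minus strand (GRCm38, GENCODE M21).

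Adgre1, on chromosome 17 at 57358691 to 57483527, plus strand, encodes F4/80, an adhesion G protein-coupled receptor that is present on eosinophils as well as macrophages in mice. Its levels were 2104, 2209.8 and 2212 normalised reads in WT and 1741, 1193 and 1447 in the libraries labelled Runx1 KO. The WT libraries lay between 96.7% and 101.7% of their mean, whereas the 3 libraries labelled Runx1 KO were spread from 54.9% to 80.0% of the WT mean, all below WT. The log2 change was -0.59 ± 0.13 (SE, n = 3 and 3), with a 95% interval from -0.90 to -0.28 (limma, adjusted p = 0.0205). Without WT 2, WT 3 or the third Runx1 KO library the adjusted p rose to 0.0635, 0.0607 and 0.0642 (limma), with log2 changes of -0.58, -0.58 and -0.59.

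Adgre1 and Cd68 were close in level relative to WT, a closeness that includes their similar change between groups. Within WT they did not follow each other: Adgre1 was at 96.7%, 101.6% and 101.7% of its WT mean and Cd68 at 99.7%, 89.5% and 110.8%. In the libraries labelled Runx1 KO both were highest in the first and lowest in the second. After each gene's log2 level was centred on its WT mean, the root-mean-square distance between them was 0.125, against a range over all pairs of the 10 genes from 0.0974 (C1qb and C1qc) to 1.03 (Vcam1 and Hmox1). By the same measure over 6 libraries the tested genes nearest to Adgre1 were Paqr3 (0.0738), Gm43848 (0.0803) and Ppic (0.0816). Nearest to Cd68 were Pycr1 (0.0753), Paqr3 (0.0800) and B4galt5 (0.0809). A short distance is a description of 6 values and was drawn from 15410 genes.

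The window upstream of Cd68 is shown because the gene gave the most stable call, and RefSeq windows with bases before the first annotated exon were found for Mrc1, C1qb, C1qc, Spic and Cd68. Each sequence printed here runs from the far end of the RefSeq window to the first annotated exon or the start, and capitals mark any match, on either strand, to 1 of 4 motifs: TGTGGT for RUNX factors, GAGGAA for PU.1, TGCTGA for the core of a MAF site and CACGTG for an E-box. The motifs do not overlap each other in these sequences. The Cd68 window, chr11:69666171-69666420 on the minus strand (GRCm38.p6), is printed 5′ to 3′.
Cd68: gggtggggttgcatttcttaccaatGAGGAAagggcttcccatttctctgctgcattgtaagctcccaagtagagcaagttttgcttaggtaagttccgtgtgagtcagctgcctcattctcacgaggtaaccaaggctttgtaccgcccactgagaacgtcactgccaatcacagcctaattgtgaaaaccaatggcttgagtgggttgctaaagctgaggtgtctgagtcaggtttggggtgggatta
It held 1 PU.1 match, 225 to 220 bases upstream of the start, a motif found in 23.3% of all 32851 RefSeq windows of this length, 250 bases. No RUNX, MAF or E-box match was in this window, and these were in 14.0%, 16.1% and 6.02% of all windows of 250 bases. A match of letters is a description and not a measured binding site.

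Of 20 genes for other lysosome proteins, 11 were called lower and none higher (limma), with a median log2 change of -0.28. With values rescaled to equal library totals 6 of the 20 were called, and with a library left out the count was 3 (without the second Runx1 KO library), 4 (without the third), 5, 6 and 7 (without WT 3, WT 2 and WT 1) and 13 (without the first Runx1 KO library). Among those that fell were Cd63, a tetraspanin of lysosomes and granules, at -1.46 ± 0.12 (SE, limma, adjusted p = 0.0013), and Tfeb, a transcription factor for lysosome genes, at -0.97 ± 0.21 (adjusted p = 0.0192). Lysosome genes are used by neutrophils, monocytes and other cells besides macrophages.

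Hmox1, on chromosome 8 at 75093621 to 75100589, plus strand, encodes the inducible haem oxygenase that releases iron from haem. It was at 1923, 3810.2 and 3525 normalised reads in WT and at 1201, 1055 and 1962 in the libraries labelled Runx1 KO. Those 3 libraries were at 38.9%, 34.2% and 63.6% of the WT mean, yet the groups met, because WT 1 was as low as the third Runx1 KO library. The log2 change was -1.12 ± 0.31 (SE, n = 3 and 3), with a 95% interval from -1.87 to -0.38 (limma, adjusted p = 0.0439). That call lay close to the threshold. It was lost with equal library totals (adjusted p = 0.0534, limma) and without the first or second Runx1 KO library (0.0879 and 0.141) or WT 2 or WT 3 (0.127 and 0.1185), with log2 changes from -1.04 to -0.94 in these 5 fits.

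Spic, on chromosome 10 at 88674772 to 88685015, minus strand, was the gene with the fewest reads of the 10. Its levels were 188, 352 and 272 normalised reads in WT and 164, 115 and 233 in the libraries labelled Runx1 KO. WT 1 fell inside the range of the other group. The log2 change of -0.68 ± 0.31 (SE, n = 3 and 3) had a 95% interval from -1.41 to 0.06 and did not pass the test (limma, adjusted p = 0.161). The size is therefore not distinguished from 0 with 3 libraries a group.

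The 17 tested genes for haem and iron handling divided between both directions, with 2 called higher, 3 called lower and a median log2 change of -0.07. Without WT 1, WT 3 or the second Runx1 KO library 3 of the 17 were called. Keap1 and Slc11a1 lost their calls in 5 and 4 of the 6 fits with a library left out (limma, adjusted p up to 0.138 and 0.112). Higher were Gclm, a subunit of the enzyme that starts glutathione synthesis, at 0.66 ± 0.11 (SE, limma, adjusted p = 0.0088), and Keap1, the inhibitor of NRF2, at 0.36 ± 0.10 (adjusted p = 0.0449). Lower were Hp, which encodes haptoglobin, the plasma protein that binds free haemoglobin, at -1.41 ± 0.12 (adjusted p = 0.0013), the phagosome metal transporter gene Slc11a1 at -0.75 ± 0.19 (adjusted p = 0.0323) and the ferritin light chain gene Ftl1 at -0.50 ± 0.07 (adjusted p = 0.0049). Reads of Ftl1 can be shared with processed copies, which makes its value less certain. Slc40a1, the gene for the iron exporter ferroportin, was chosen after its values were seen: it was at 3758, 4715 and 4238 in WT and 2314, 2413 and 3918 in the libraries labelled Runx1 KO, a log2 change of -0.59 ± 0.20 that did not pass (limma, adjusted p = 0.0764).

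The C1q chains lie side by side on chromosome 4, minus strand: C1qa at 136895917 to 136898803, C1qc at 136889804 to 136893065 and C1qb at 136880129 to 136886187. C1qa was at 1682, 2808 and 2245 normalised reads in WT and at 1665, 1219 and 1738 in the libraries labelled Runx1 KO. C1qb was at 1801, 3373 and 2685 in WT and at 2241, 1682 and 2093 in the other group. C1qc was at 1427, 2720.4 and 2273 against 1664, 1231 and 1829.9. All 3 chains had their highest value in WT 2 and their second highest in WT 3, whereas WT 1 lay within the range of the libraries labelled Runx1 KO for C1qa and C1qb and for C1qc.

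No chain passed the test. The log2 changes were -0.53 ± 0.21 for C1qa (SE, n = 3 and 3; 95% interval -1.02 to -0.04; limma, adjusted p = 0.110), -0.35 ± 0.22 for C1qb (-0.88 to 0.18; adjusted p = 0.300) and -0.41 ± 0.25 for C1qc (-1.002 to 0.18; adjusted p = 0.274). These changes depended on single libraries, in both directions. Without WT 1 the log2 changes became -0.72, -0.60 and -0.68, and all 3 passed (limma, adjusted p = 0.0419, 0.0455 and 0.0498). Without WT 2, the highest library for all 3 chains, they shrank to -0.35, -0.14 and -0.21 (limma, adjusted p = 0.268, 0.659 and 0.593). Without the second Runx1 KO library they were -0.37, -0.23 and -0.24, and none passed. C1qa also passed with DESeq2 on the reads (adjusted p = 0.0316).

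Within a library the chains kept nearly fixed proportions. Per kilobase of exon, C1qb made up 43.5% ± 1.91 (SD over 6 libraries) of the summed C1q level, C1qa 37.0% ± 1.90 and C1qc 19.5% ± 0.904. The summed C1q level itself ran from 4132 normalised reads in the second Runx1 KO library to 8902 in WT 2. The share of C1qa was 40.3%, 37.5% and 37.2% in WT and 35.4%, 34.9% and 36.8% in the libraries labelled Runx1 KO, so the groups did not overlap in this share. Without division by length they did not overlap either. Among all tested genes 24.0% did not overlap on their ratio to summed C1q reads. That is only a rough background, because C1qa is itself part of the summed reads. Shares of C1qb (41.3% to 43.0% in WT and 42.4% to 46.1% in the other group) and of C1qc (18.4% to 20.3% and 19.0% to 20.9%) overlapped.

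The nearest pairs among the 10 genes were C1qb with C1qc (distance 0.0974) and C1qa with C1qc (0.115). Closest to the mean profile of the 3 chains were Hpgds, the gene for haematopoietic prostaglandin D synthase (0.0806), Ptpn14, a tyrosine phosphatase gene (0.108), and Fdps, a gene of the mevalonate pathway (0.130). Because the chains moved together, the windows upstream of C1qb (chr4:136886201-136886450, minus strand) and C1qc (chr4:136893066-136893164, minus strand, shorter because the rest lies in an annotated exon) are shown next, both from GRCm38.p6 and 5′ to 3′.
C1qb: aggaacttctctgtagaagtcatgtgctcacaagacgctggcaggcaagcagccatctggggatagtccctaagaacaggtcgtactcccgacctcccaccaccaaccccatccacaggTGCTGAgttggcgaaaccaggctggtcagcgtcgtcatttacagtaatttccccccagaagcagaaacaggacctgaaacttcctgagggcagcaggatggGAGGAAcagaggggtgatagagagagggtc
C1qc: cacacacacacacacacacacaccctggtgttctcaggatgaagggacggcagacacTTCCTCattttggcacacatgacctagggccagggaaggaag
The C1qb window held 1 PU.1 match, 30 to 25 bases upstream of the start, and 1 MAF match, 131 to 126 bases upstream. The C1qc window of 99 bases held 1 PU.1 match on the opposite strand, 193 to 188 bases upstream, a motif present in 9.91% of windows cut to the same 99 bases. Neither window held a RUNX match or an E-box, and 5.91% and 1.73% of windows cut to 99 bases did.

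The other genes of the classical pathway did not move one way. Of 13 tested, 2 were called higher and 2 lower, with a median log2 change of -0.03. C4b, a gene for complement component 4, rose from 119, 277 and 94.96 normalised reads to 1864, 2185 and 2459, a log2 change of 3.87 ± 0.37 (SE, limma, adjusted p = 0.0017), with the caution that C4a is a near-identical copy. Cd93, a surface receptor once studied as a C1q receptor, rose by 0.68 ± 0.13 (adjusted p = 0.0137). C3, the component on which all complement pathways meet, fell by 0.79 ± 0.14 (adjusted p = 0.0105), and Itgam, the alpha chain of complement receptor 3, fell by 1.95 ± 0.31 (adjusted p = 0.0077), from 3757, 2561 and 2160.2 to 1136, 559 and 568 normalised reads. Itgam is also abundant on neutrophils and monocytes.

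Cd163, on chromosome 6 at 124304656 to 124330527, plus strand, encodes the receptor for haptoglobin-haemoglobin complexes. It was at 829, 1079 and 1319.9 normalised reads in WT and at 785, 638 and 911 in the libraries labelled Runx1 KO. Only the third Runx1 KO library was above a WT library, WT 1. The log2 change was -0.46 ± 0.19 (SE, n = 3 and 3), with a 95% interval from -0.91 to just under 0, and it did not pass after adjustment (limma, adjusted p = 0.132). Only Hp, the gene for haptoglobin, was called lower of this receptor and ligand pair, and the difference between the 2 genes was not tested.

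Mrc1, on chromosome 2 at 14229392 to 14332057, plus strand, encodes the mannose receptor, which takes up glycoproteins. Its values were 1396, 2063 and 1870.5 normalised reads in WT and 1544, 1367 and 1837 in the libraries labelled Runx1 KO. The groups overlapped over most of their range. With a log2 change of -0.16 ± 0.17 (SE, n = 3 and 3; 95% interval -0.55 to 0.23; limma, adjusted p = 0.523), Mrc1 had the smallest change of the 10, and the interval still allows a moderate fall or a small rise. The microRNA gene Mir511 lies inside Mrc1 and was not analysed here.

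Vcam1, on chromosome 3 at 116109949 to 116129688, minus strand, encodes an adhesion protein that marks marrow macrophages and is also made by stromal and endothelial cells. It was at 2820.4, 4872 and 3832 normalised reads in WT and at 3679, 4612 and 5793 in the libraries labelled Runx1 KO. The third Runx1 KO library was the highest of the 6 and WT 1 the lowest, and the other 4 were mixed. The log2 change was 0.30 ± 0.23 (SE, n = 3 and 3), with a 95% interval from -0.24 to 0.84 (limma, adjusted p = 0.374). It ranged from 0.10 to 0.49 when single libraries were left out. An antisense gene, Gm43109, overlaps Vcam1 in the annotation and was not among the genes with a value. Whether counting used the strand is not given in the sources used here, so any effect of the overlap on the Vcam1 count is not known.

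Genes for VCAM1 receptors and adhesion partners changed in both directions: 2 of 9 were called higher and 4 lower, with a median log2 change of 0.07. The integrin alpha chains that bind VCAM1 were the ones called higher. Itga9 was at 384, 371 and 324 normalised reads in WT and at 883, 1069 and 911 in the other group, a log2 change of 1.40 ± 0.11 (SE, limma, adjusted p = 0.0010), and Itga4 rose by 0.48 ± 0.06 (adjusted p = 0.0038). Itgb7, a beta chain that pairs with the alpha 4 chain, fell by 0.70 ± 0.18 (adjusted p = 0.0359), and the membrane to cytoskeleton linkers Ezr and Msn fell, with log2 changes of -0.74 ± 0.08 (adjusted p = 0.0024) and -0.61 ± 0.11 (adjusted p = 0.0102).

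**Figure D3:**
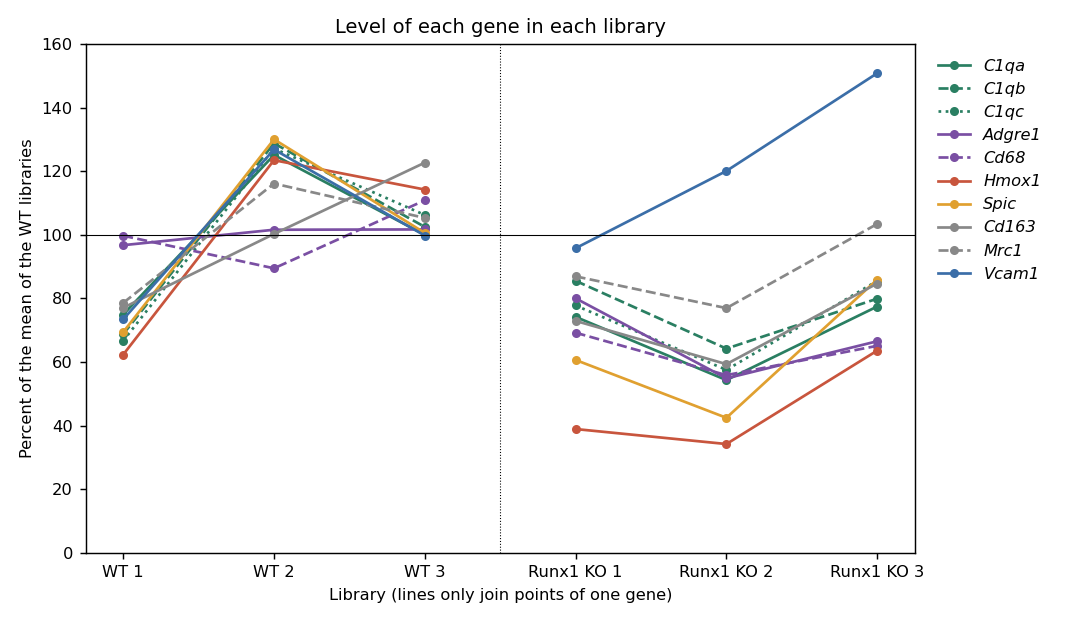
Level of each gene in each of the 6 libraries (horizontal axis) as a percent of its WT mean (vertical axis). The 3 C1q chains (green) lie close together in every library, Hmox1 is lowest in the libraries labelled Runx1 KO (34.2% to 63.6%), and Vcam1 is highest there (95.8% to 150.8%).

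Proportions between the genes were compared as well. Taking the summed C1q reads of each library as a common measure, a choice made after the values were seen, Vcam1 stood at 57.4, 54.7 and 53.2 reads per 100 C1q reads in WT and at 66.0, 111.6 and 102.3 in the libraries labelled Runx1 KO. Every library of the second group was above WT on this ratio, with means of 55.1 ± 2.15 and 93.3 ± 24.1 (SD, n = 3 and 3). Hmox1 went the other way, with 39.2, 42.8 and 48.9 reads per 100 C1q reads in WT and 21.6, 25.5 and 34.7 in the libraries labelled Runx1 KO.

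Every library labelled Runx1 KO was below WT on the Hmox1 ratio, with means of 43.6 ± 4.94 and 27.3 ± 6.71 (SD, n = 3 and 3). For both genes the two-sided exact permutation p was 0.1, the smallest that 3 against 3 can give, and adjusted over the 7 genes compared in this way it was 0.35. As given for the C1qa share, 24.0% of all tested genes did not overlap on this ratio. Adgre1, Cd68, Mrc1, Cd163 and Spic overlapped between groups on this ratio, with exact permutation p of 0.7, 0.5, 0.2, 0.8 and 0.4. Spic kept a narrow ratio in WT, 3.83, 3.96 and 3.78 reads per 100 C1q reads, and was at 2.95, 2.78 and 4.11 in the other group.

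**Figure D4:**
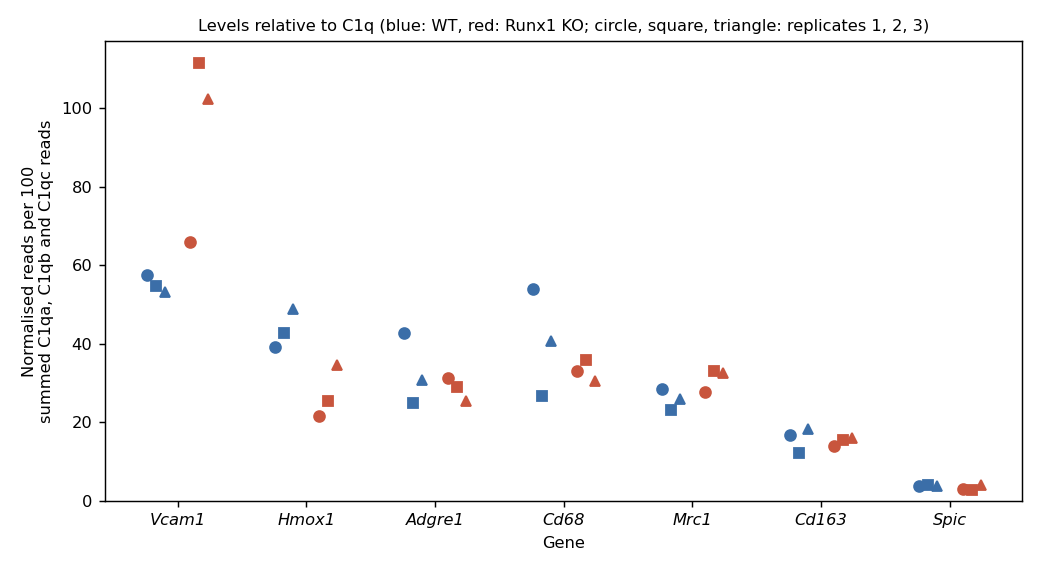
Normalised reads of each gene per 100 summed C1qa, C1qb and C1qc reads (vertical axis) in the WT libraries (blue) and the libraries labelled Runx1 KO (red). Vcam1 is higher in all 3 red points (66.0 to 111.6 against 53.2 to 57.4), Hmox1 is lower (21.6 to 34.7 against 39.2 to 48.9), and the other 5 genes overlap.

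Nearest to Hmox1 in profile over the 6 libraries were Tmem267 (distance 0.0969), Smim6 (0.143) and E230029C05Rik (0.176). The genes with the shortest distance to Vcam1 were Aebp1 (0.0920), a gene of stromal cells, Bdh1 (0.103) and Gm26880 (0.112). Aebp1 was at only 8.90 to 17.9 normalised reads per library and Gm26880 at 23.7 to 43.8, so their profiles rest on few reads. For Spic the nearest were Slco2b1 (0.116), Gm9803 (0.138) and Gm14150 (0.156), for Cd163 they were Fam213b (0.0551), Myo10 (0.101) and Rcn3 (0.120), and for Mrc1 they were Uchl4 (0.0490), Gm6091 (0.0644) and Gm13611 (0.0686). Other nearest genes also rest on few reads. Among them are Gm9803 (5.95 to 19.2 normalised reads), Gm13611 (22.8 to 31.3), Gm43848 (24.8 to 42.4) and Fdps (29.7 to 54.5).

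Levels of different genes were compared only per kilobase of exon. In WT the order was C1qb (2408 ± 724 normalised reads per kilobase, SD, n = 3), C1qa (2159 ± 542), Cd68 (2112 ± 226), Hmox1 (1763 ± 581), C1qc (1108 ± 340.3), Adgre1 (672 ± 19.0), Vcam1 (433 ± 116), Mrc1 (279 ± 53.9), Cd163 (197 ± 44.9) and Spic (70.5 ± 21.4). The ranges of the first 4 over the WT libraries overlapped. Within every WT library, however, C1qb was above C1qa and C1qa above Hmox1, and Cd68 changed its place among them. C1qc and Hmox1, Vcam1 and Mrc1, and Mrc1 and Cd163 also overlapped between libraries. Within every WT library Hmox1 was above C1qc, Vcam1 above Mrc1 and Mrc1 above Cd163. Adgre1 lay apart from both of its neighbours and Spic lay below all of the rest. In the libraries labelled Runx1 KO Vcam1 (529 ± 119 per kilobase) had a higher mean than Adgre1 (451 ± 84.6), with overlapping libraries.

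Of 20 tested genes for other surface and identity proteins of tissue macrophages, 4 were called lower and none higher, with a median log2 change of -0.38. Timd4, a receptor for phosphatidylserine on resident macrophages, was at 94.0, 181 and 156 normalised reads in WT and at 14.6, 7.93 and 58.7 in the other group, a log2 change of -2.78 ± 0.67 (SE, limma, adjusted p = 0.0273). Hpgd, which encodes an enzyme that degrades prostaglandins, fell by 1.73 ± 0.29 (adjusted p = 0.0085), from between 712 and 1062 normalised reads to between 162 and 346. Lyve1, a hyaluronan receptor gene, fell by 2.37 ± 0.64 (adjusted p = 0.0388), but from 72.2 normalised reads in WT 1 and only 14.1 and 14.4 in the other WT libraries. The calls of Timd4 and Lyve1 were lost in 4 and 5 of the 6 fits with a library left out (limma, adjusted p up to 0.0854 and 0.122).

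The fourth gene called lower was Sirpa, the receptor for the CD47 signal against phagocytosis, chosen here after its values were seen, at -0.51 ± 0.10 (adjusted p = 0.0134). Without WT 2 or without the first Runx1 KO library 2 of the 20 were called, and without the second Runx1 KO library 1 was. Siglec1, the gene for the marrow macrophage receptor CD169, was at 531, 818 and 749 in WT and 750.0, 796 and 824 in the other group (0.20 ± 0.16; limma, adjusted p = 0.403), and Mertk, an engulfment receptor gene, changed by 0.42 ± 0.25 (adjusted p = 0.265). Both were named after their values were seen.

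Among 21 genes for transcription and growth factors of macrophages, 1 was called higher and 8 lower, with a median log2 change of -0.28. Spib, Irf4 and Klf4 fell most, with log2 changes of -5.75 ± 0.84, -4.59 ± 0.85 and -2.47 ± 0.42 (SE, limma, adjusted p = 0.0057, 0.0117 and 0.0091). Spib and Irf4 are also genes of plasmacytoid dendritic cells and B cells, and both were far higher in WT 1 (6036 and 5487 normalised reads) than in the other WT libraries (1507 and 2646 for Spib, 703 and 1213 for Irf4). The receptor gene Rxra was called higher, at 0.75 ± 0.10 (adjusted p = 0.0049). Csf1r, the receptor on which most tissue macrophages depend, and Maf, a transcription factor gene of macrophages, were chosen after their values were seen and did not pass, with log2 changes of -0.34 and -0.13 (limma, adjusted p = 0.176 and 0.544). Spi1, which encodes PU.1, and Stab1, also chosen so, were called lower, at -0.36 and -1.32 (limma, adjusted p = 0.0403 and 0.0045).

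Markers of other cells that share some of these genes moved as well. Of 12 monocyte genes 5 were called lower and 1 higher, and their summed level was 108952 to 144849 normalised reads in WT and 66412 to 110246 in the other group. S100a4, Chil3 and Cx3cr1 fell, with log2 changes of -1.91, -1.66 and -1.61, and F13a1 rose by 0.75. Without WT 1 or WT 3, 3 of the 12 were called, and without the second Runx1 KO library 2 were. Of 10 eosinophil genes 4 were called lower and 1 higher, with a summed level of 15343 to 23389 in WT and 8257 to 12913 in the other group. Alox15, Ear2 and Ear1 fell, with log2 changes of -3.24, -2.24 and -1.49, and Siglecf rose by 0.48. Of these 10, 2 were called without the second Runx1 KO library and 3 without WT 2.

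Of 12 neutrophil genes 8 were called lower, and their sums did not overlap (280309 to 366444 and 140392 to 195299 normalised reads), with log2 changes of -2.64, -2.49 and -2.43 in Ngp, Ltf and Camp, and 5 of the 12 were called without the second Runx1 KO library. Mmp8, Retnlg and Cxcr2, named after their values were seen, were not called. Their levels in WT 1 were 16536, 10382 and 5761 normalised reads. Those in WT 2 and WT 3 were 2274 and 2454, 1938 and 2001, and 1690 and 1332. Elane, Mpo, Prtn3 and Cebpe, named likewise, and Camp were instead highest, among the WT libraries, in WT 2. Dendritic cell genes gave 1 call lower of 12 (Irf4), with sums of 7965 to 13375 and 6431 to 8675, and 4 and 3 calls without the first or the third Runx1 KO library. No gene of these 4 lists was at 0 in any library, and the lowest was S100a4, at 1.98 normalised reads. The part of these cells in the lower Adgre1, Cd68 and Hmox1 was not tested. The erythroid list, of the cells that marrow macrophages nurse, had 6 of 11 genes called lower and none higher. Of the other genes 3 were higher at any p. The sums were 22543 to 34746 in WT and 16286 to 24744 in the other group. Tfrc and Ermap, named after their values were seen, weighed most in the latter sums, with means of 6899 and 6768, and neither was called.

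Endothelial and stromal genes, which matter for Vcam1, gave 3 calls higher and 3 lower of 9, with sums of 4268 to 4897 in WT and 3967 to 5407 in the other group, and their part in the Vcam1 value was not tested. Tek, Kdr and Emcn, of endothelial cells and in part of stem cells, rose by 1.92, 1.63 and 1.39 on the log2 scale. Cxcl12 and Col1a1, of stromal cells, fell, with log2 changes of -2.95 and -2.85, and the pericyte gene Pdgfrb fell by 0.68.

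**Figure D5:**
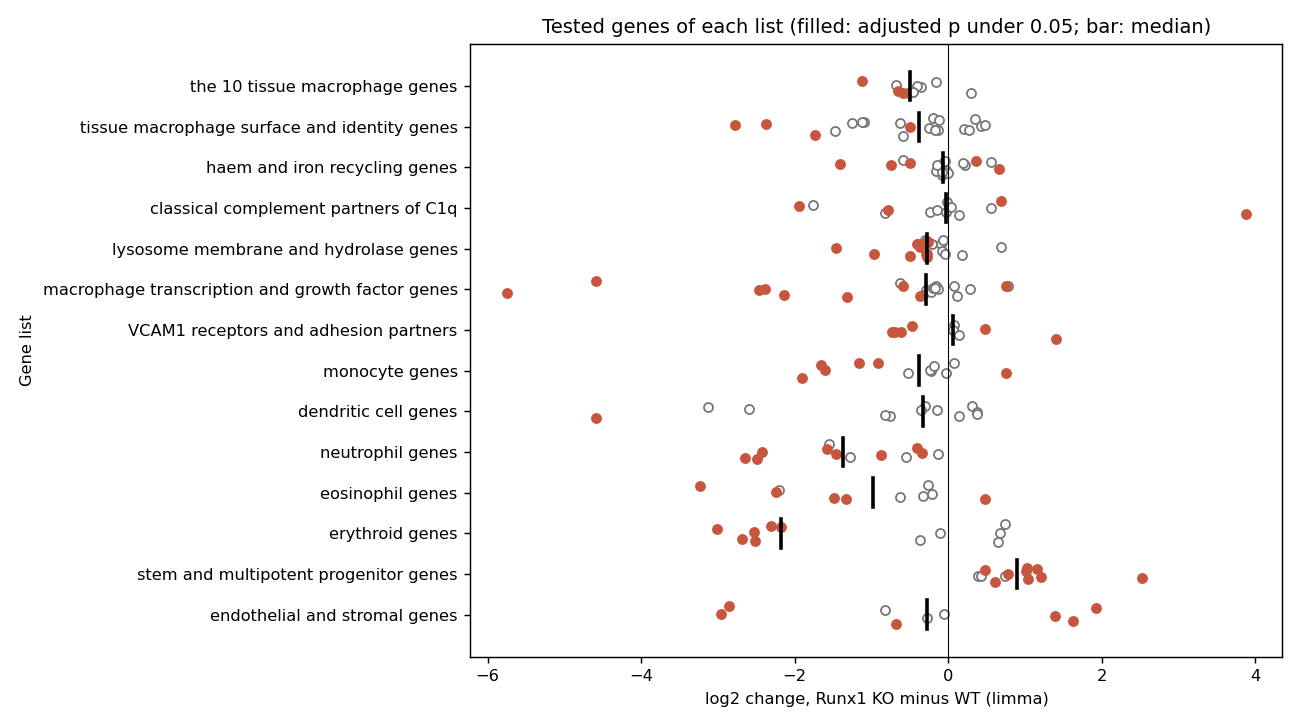
Log2 change from WT to Runx1 KO (horizontal axis) of every tested gene of the 10 macrophage genes and of 13 other lists, filled where the limma adjusted p was under 0.05, with the list's median as a bar. The median of the 10 genes, -0.49, lies below those of the tissue macrophage surface and identity list and the monocyte list, both -0.38. It lies above that of the eosinophil list, -0.98.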

How the data were processed

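Poly-A RNA of c-Kit+ marrow cells was sequenced in 3 WT libraries and 3 labelled Runx1 KO, with stranded libraries per the labels' protocols. Reads were aligned with HISAT2 and counted with HTSeq 0.9.1 on mm10 (GRCm38), per the submitters' processing notes; the annotation, the strand setting and the normalization tool are not given in the sources used here. The deposited values are a signal per gene, the normalised read count: 100% of the values in each library were whole multiples of its smallest positive value within a tolerance of 0.001, and these multiples were taken as reads. The labels do not say that replicates came from separate animals, so p-values measure only the spread between these libraries.

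Symbols were found for 20077 of 20097 identifiers. Genes passing filterByExpr of edgeR 4.0.16 (minimum count 10, minimum total 15) were fitted with limma 3.58.1 in R 4.3.3 (lmFit, eBayes with trend) on log2(value + 1), which understates changes of weakly expressed genes, with group as its single factor, a two-sided test and Benjamini-Hochberg adjustment over 15410 genes at a threshold of 0.05. The fit was tested on simulated data. Intervals are 95%. Alternatives were edgeR and DESeq2 1.42.0 on the recovered reads, other scalings, filters and pseudocounts (0.5 and 5), the replicate block and each library left out. Exon lengths and positions came from GENCODE M21.

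The 10 genes and the lists were chosen with earlier results of these data known. Named were all 10 genes, Runx1 and Kit, up to 3 called genes per direction and list, and the 3 genes nearest in profile. Exceptions are marked as chosen after their values were seen. Not every gene that this rule names is reported here.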

Additional observations from a re-analysis of the deposited data

How the results depend on the processing

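With 3 libraries a group, even changes above the spread between WT libraries could go uncalled. C1qa had means of 2245 in WT and 1541 in the other group, with a WT SD of 563, and did not pass (limma, adjusted p = 0.110). In the 11 settings that kept all libraries, between 2 and 4 of the 10 genes were called (3 as reported), 3182 to 3911 of all genes (3370) and 75 to 90 of 175 genes on the 13 lists (79). None of the 10 genes changed direction in these settings or with a library left out. Cd68 passed in all of them. Leaving out single libraries gave 1 to 6 calls among the 10 genes (6 without WT 1, 1 without WT 2 or WT 3), 1349 to 3551 among all genes and 44 to 90 on the lists, the lowest of both without the second Runx1 KO library; these fits use fewer samples. Besides Adgre1 and Hmox1, calls of 17 named list genes were lost in 1 or more of these 6 fits (Alox15, Cd93, Chil3, Col1a1, Cx3cr1, Ear1, Fgd5, Itgb7, Keap1, Ltf, Ly6a, Lyve1, Pdgfrb, S100a4, Slc11a1, Tfeb and Timd4), with adjusted p up to 0.138. Without division by length C1qa, C1qb and C1qc made up 31.2%, 38.3% and 30.5% of summed C1q reads. Equal library totals moved the median of all genes to 0.08 and the share of calls that were higher from 48.4% of 3370 to 63.5% of 3755; the 10 genes gave 2 calls. DESeq2 called 3 dendritic cell genes instead of 1.

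Replicate numbers are shared by the groups, but nothing in the labels says that they pair the libraries. Deviations of same-numbered libraries correlated at 0.287, 0.129 and -0.0104 over all tested genes, and WT 2 correlated better with the third Runx1 KO library (0.235) than with its own number. A fit with the replicate block gave 3843 calls among all genes, 3 among the 10 genes and 90 on the lists (limma), and 3685, 3 and 85 with edgeR.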

Other observations

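Of 12 stem and progenitor genes 9 were called higher and none lower by limma, with a median log2 change of 0.89 and summed levels of 19200.2 to 22719 normalised reads in WT and 29966 to 33778 in the libraries labelled Runx1 KO. Without the second Runx1 KO library 5 of the 12 were called. Slamf1, the gene for the stem cell receptor CD150, rose from 79.1, 87.8 and 119 to 518, 517 and 608 normalised reads, a log2 change of 2.53 ± 0.17 (SE, n = 3 and 3; limma, adjusted p = 0.0008). Ly6a, which encodes SCA-1, rose by 1.21 ± 0.23 (adjusted p = 0.0131), and Fgd5 by 1.16 ± 0.23 (adjusted p = 0.0144). Among erythroid genes the largest falls were in Alas2, the first enzyme of haem synthesis in red cells, at -3.01 ± 0.45 (limma, adjusted p = 0.0062), and in the globin genes Hbb-bt (-2.68 ± 0.40) and Hbb-bs (-2.53 ± 0.34), which are near-identical copies. Alas2 was at 597, 1501 and 679 normalised reads in WT and 186, 74.3 and 81.6 in the libraries labelled Runx1 KO, so WT 2, the library in which 6 of the 10 macrophage genes were highest, was also highest for Alas2. Klf1, Epor and Ermap, chosen after their values were seen, were higher at any p and did not pass, with log2 changes of 0.74, 0.68 and 0.65 (limma, adjusted p = 0.0816, 0.107 and 0.167). The groups only just did not overlap for Klf1, at 1512 normalised reads in WT 2 and 1516 in the first Runx1 KO library. Groups were apart, in either direction, for 43.3% of all tested genes.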
